A study of Mus musculus with 20 samples.

Results

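The myelin genes of the adult mouse hippocampus were 9 genes, Mbp, Mog, Mag, Mobp, Cnp, Mal, Opalin, Cldn11 and Ermn, taken by symbol from the 48709 genes of the deposited gene map. They were chosen from general knowledge, with earlier results of these data known. All 9 passed the filter on low counts, which left 19797 genes. RNA was sequenced from the hippocampus of 20 mice, of strain C57BL/6 in the labels and C57BL/6J in the study's methods, with 5 samples from each sex and each exposure, in 4 groups. nPM is nano-sized particulate matter of urban air, which the dams inhaled from gestational day 2 until birth in sessions of 5 h, held 3 days a week, and control dams inhaled filtered air. The labels give a concentration of 300 mg/m3, where the study's methods have μg in place of mg. Females were 17.71 to 18.29 weeks old and males 18.57 to 19.14 weeks, so sex and age at collection went together in every sample. Per the study's methods, male mice were also injected with the thymidine analog EdU before collection, whether females were is not clear from them, and brains were perfused with saline. No label gives the litter of a sample, and p-values measure the spread between these samples, some of which could share a dam.

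Myelin is the membrane sheath that oligodendrocytes wrap around axons of the central nervous system, where it speeds conduction of the action potential. Its compact layers are held together by proteins such as myelin basic protein, while other proteins face the axon, the outer surface or the cytoplasmic channels of the sheath. In the hippocampus, myelinated fibers run mainly in the alveus, the fimbria and the stratum lacunosum-moleculare, and oligodendrocytes are a minority of the cells. The hippocampus was sampled as whole tissue, so that fewer oligodendrocytes and less myelin RNA per oligodendrocyte cannot be told apart in these values. The fimbria carries dense myelin at the edge of the hippocampus, and the share of it in each dissected piece was not recorded in the labels.

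Total counts per sample ranged from 19092067 (nPM female 4) to 38663408, with a median of 29468930. nPM female 4 also had the highest share of mitochondrial ribosomal RNA, 13.3% of counts beside a median of 11.2%, with nPM female 2 close at 13.2%. Control male 1 was at 28026459 counts and 11.9%. The 9 genes together took 0.166% to 0.410% of a sample's counts, and the lowest count of any of them was 205, for Opalin, so counting noise was small beside the spread between samples. The first principal component of all genes held 30.3% of the variance and separated the sexes with no overlap. Control male 1 and nPM female 4 stood apart in the myelin genes and in base composition, as described below, and results that rest on them are given with and without them. Genes of peripheral nerve myelin were low. The 6 genes of the peripheral list, among them Pmp22, summed to at most 23.2 CPM (counts scaled to the size of the library) in any sample, against 1735 to 4095 CPM for the 9 myelin genes.

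Promoter sequences are shown for 4 of the genes, Mobp, Mag, Opalin and Ermn, each of which held a motif searched for. RefSeq windows (GRCm38.p6) were found for 8 of the 9 genes, all but Mbp, and the most upstream window of each gene was used. The 250 bases before the start were searched on both strands for CTGGCAC, a form of the motif of the myelin regulator MYRF, and for ACAAAG and ACAATG, core motifs of SOX factors such as SOX10. Matches are in capitals, each sequence runs 5′ to 3′ on the strand of its gene, and the motifs share no bases here. The windows lie at chr9:120149492-120149741 (plus strand), chr7:30914923-30915172, chr19:41077114-41077363 and chr2:58052865-58053114 (minus strand).
Mobp: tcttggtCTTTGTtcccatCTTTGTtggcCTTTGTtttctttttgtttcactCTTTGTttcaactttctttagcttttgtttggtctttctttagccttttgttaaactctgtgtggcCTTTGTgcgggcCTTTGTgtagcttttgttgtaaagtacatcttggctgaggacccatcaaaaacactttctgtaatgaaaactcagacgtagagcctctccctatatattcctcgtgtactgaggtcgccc
Mag: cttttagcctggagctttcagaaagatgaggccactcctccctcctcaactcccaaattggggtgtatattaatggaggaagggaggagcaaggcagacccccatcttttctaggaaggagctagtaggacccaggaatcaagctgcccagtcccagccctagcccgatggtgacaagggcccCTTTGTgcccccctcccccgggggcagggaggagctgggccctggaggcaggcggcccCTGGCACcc
Opalin: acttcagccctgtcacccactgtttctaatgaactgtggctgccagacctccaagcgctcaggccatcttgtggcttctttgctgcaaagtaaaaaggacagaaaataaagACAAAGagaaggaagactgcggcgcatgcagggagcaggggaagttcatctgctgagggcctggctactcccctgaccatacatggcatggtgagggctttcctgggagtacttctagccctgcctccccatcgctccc
Ermn: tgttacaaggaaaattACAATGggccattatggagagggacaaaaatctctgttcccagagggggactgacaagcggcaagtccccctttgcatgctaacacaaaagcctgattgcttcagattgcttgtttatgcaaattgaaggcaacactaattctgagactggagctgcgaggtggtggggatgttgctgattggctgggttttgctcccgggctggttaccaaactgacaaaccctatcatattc
The Mobp window held ACAAAG 6 times, all on the strand opposite to the gene. ACAAAG or ACAATG was present in 5 of the 8 windows, against 25.2% of all 32851 windows of the table. These were the 4 windows shown and that of Cnp. The windows of Mog, Mal and Cldn11, which are not shown, held none of the motifs. Whether the motifs go with the shared movement of the genes across samples was not tested. CTGGCAC was present in 2 of the 8, those of Mag and Cnp, against 4.19% of all windows. A match of letters is a description and not a binding site, and binding was not measured.

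Per length, Mbp, Mobp and Mal were the most abundant and the late marker Opalin the least. Levels between genes were compared in RPKM, counts scaled to gene length and library size. Mbp, on chromosome 18, encodes myelin basic protein, which joins the cytoplasmic faces of compact myelin, and was at 152 ± 29.2 RPKM (SD over all 20 samples). Its gene-level count pools the classic transcripts with the longer golli transcripts, which other cells also make. Mobp (chr9:120149742-120181484), which encodes myelin-associated oligodendrocyte basic protein, was at 121 ± 18.9 RPKM. Mal (chr2:127633226-127656695), a membrane protein of lipid rafts and vesicle transport, was at 104 ± 19.6 RPKM. At most 1.35% of the 19797 tested genes were above any of these 3 in mean RPKM.

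The other genes were lower per length. Cnp (chr11:100574904-100591729), a cyclic nucleotide phosphodiesterase that keeps cytoplasmic channels open, was at 67.7 ± 15.3 RPKM. Cldn11 (chr3:31149920-31164324), the tight junction claudin of oligodendrocytes, was at 62.4 ± 14.3 RPKM. Mag (chr7:30899176-30914873), an adhesion molecule of the innermost layer that faces the axon, was at 33.1 ± 8.02 RPKM. Mog (chr17:37010743-37023398), a surface glycoprotein of the outermost layer and a target of demyelinating antibodies, was at 28.7 ± 6.31 RPKM. Ermn (chr2:58045113-58052864), the cytoskeletal protein ermin of late oligodendrocyte processes, was at 26.6 ± 5.53 RPKM. Opalin (chr19:41062474-41077113), a transmembrane protein of mature oligodendrocytes, was at 9.44 ± 2.93 RPKM.

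The order of the levels was kept in most samples but not at every step. Mobp was above Mal, Mal above Cnp, Cldn11 above Mag and Ermn above Opalin in all 20 samples. Mbp was above Mobp in 19 samples, all but nPM female 4, and Mag was above Mog in 19, again all but nPM female 4. Cnp was above Cldn11 in 17 samples and Mog above Ermn in 15, so these neighbors were not separated beyond their spread. Cnp overlaps Dnajc7 on the opposite strand, and the strand setting of the counting is not given in the sources used here, so reads of the shared bases cannot be assigned with certainty. The same holds for Mbp, which overlaps the pseudogene Rpl21-ps8, and for Ermn, which overlaps Galnt5.

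Values below are CPM after scaling by TMM factors, which are comparable between samples of one gene and not between genes. Mbp was at 1173, 1111, 1393, 1202 and 1336 CPM in control females 1 to 5 and at 1198, 1161, 1252, 861 and 1255 CPM in nPM females 1 to 5. In control males 1 to 5 it was at 662, 1368, 1229, 1602 and 1548 CPM, and in nPM males 1 to 5 at 1567, 1664, 1409, 1148 and 1316 CPM. The exposure groups overlapped in both sexes, and the lowest value of all 20 was a control male, at less than the lowest female.

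Cnp was at 234, 193, 235, 228 and 215 CPM in control females and at 224, 208, 255, 142 and 243 CPM in nPM females. It was at 128, 283, 251, 320.4 and 320.3 CPM in control males and at 306, 340.5, 283, 239.6 and 275 CPM in nPM males. The same samples were low as for Mbp, nPM female 4 and control male 1, and every other male lay above the median female. Cldn11 was at 106, 101, 112, 105 and 104 CPM in control females, the tightest group of any of the 9 genes, with a coefficient of variation of 3.87%. In nPM females Cldn11 was at 107, 89.5, 103, 71.2 and 106 CPM. It was at 71.0, 132, 130.3, 157 and 151 CPM in control males and at 149, 172, 134, 106 and 127 CPM in nPM males. Without control male 1, no control male overlapped any female in Cldn11.

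Ermn was at 74.7, 78.0, 86.4, 91.8 and 83.3 CPM in control females and at 82.1, 74.4, 77.5, 78.6 and 99.6 CPM in nPM females. In control males it was at 81.1, 117, 90.7, 124 and 104 CPM, and in nPM males at 137, 137, 107, 96.9 and 110.0 CPM. Control male 1 lay within the female range of Ermn, and nPM female 4 was the middle sample of its group. Opalin was at 18.6, 7.83, 15.8, 12.4 and 13.5 CPM in control females and at 9.46, 15.1, 18.3, 13.2 and 16.1 CPM in nPM females. It was at 10.7, 20.4, 19.8, 23.5 and 22.8 CPM in control males and at 28.6, 24.5, 17.4, 16.8 and 22.4 CPM in nPM males. Opalin had the widest range of the 9 genes, 3.65-fold from control female 2 to nPM male 1, and Ermn the narrowest, 1.85-fold.

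The other genes followed one of these patterns. Mag ranged from 67.0 CPM in control male 1 to 188 CPM in nPM male 1, and Mog from 24.7 CPM in control male 1 to 69.5 CPM in nPM male 2. Mobp was at 504 CPM in control male 1 and 667 to 1072 CPM in the other 19 samples. Mal was at 186 CPM in control male 1 and 239 to 435 CPM in the others. nPM female 4, at 754 CPM of Mobp and 249 CPM of Mal, was within its group for these genes, while it was the lowest nPM female for Mbp, Mog, Mag, Cnp and Cldn11.

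**Figure D1:**
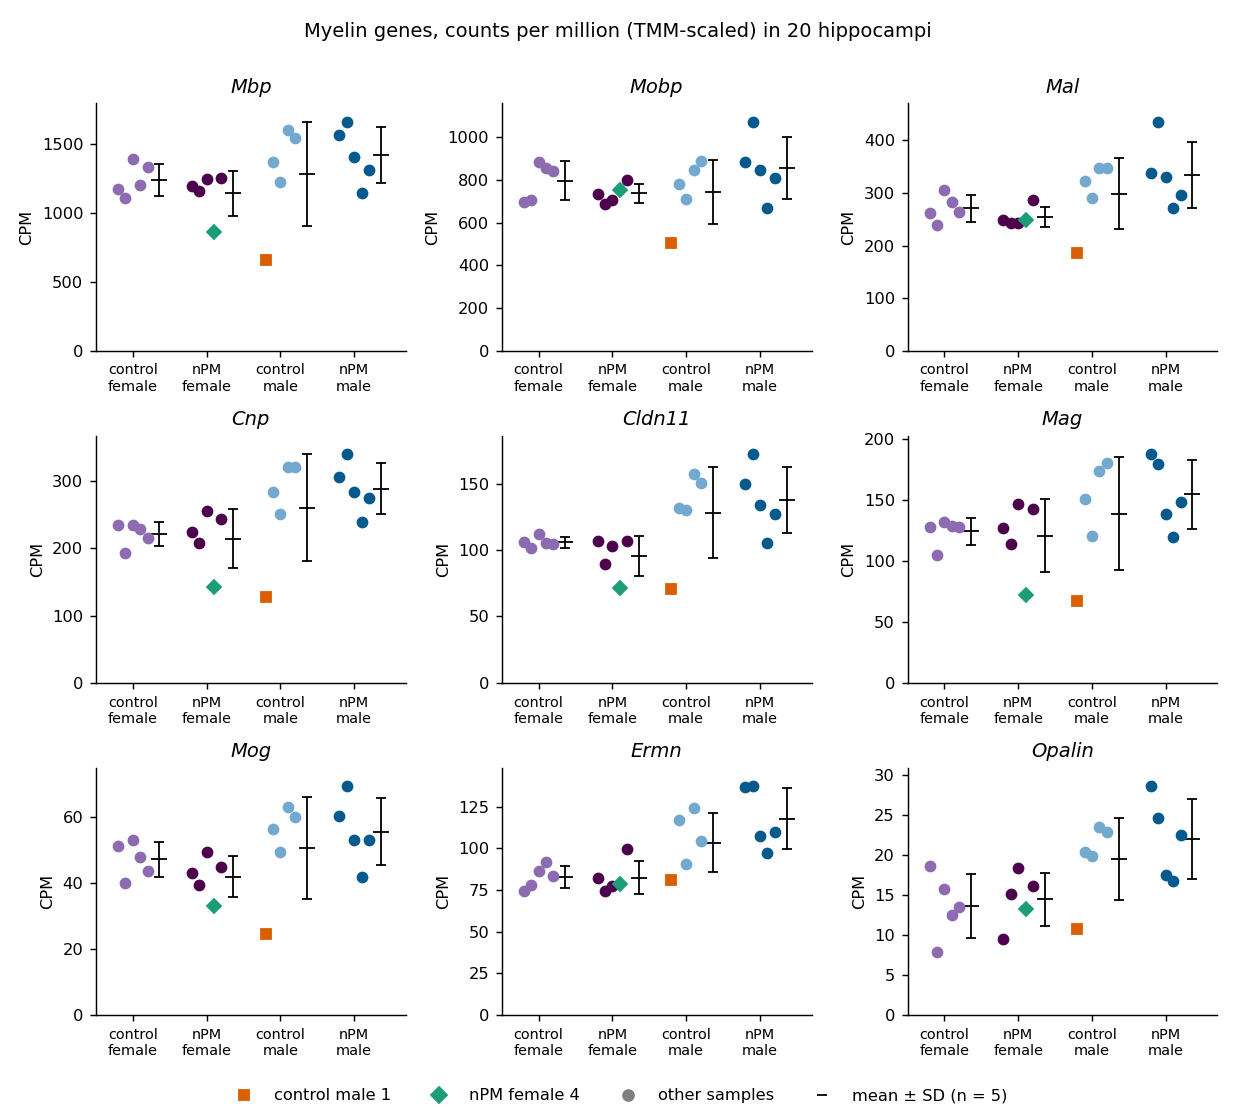
CPM (TMM-scaled, linear axes from 0) of each of the 9 myelin genes in the 20 samples by group, with the mean ± SD of 5 samples beside the points. Control male 1 (orange square) was the lowest sample for 7 of the genes, at 662 CPM for Mbp, while nPM female 4 (green diamond) was low for Mbp, Cnp, Cldn11, Mag and Mog and not for Mobp or Mal.

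The first question was whether gestational nPM went with a change of these genes in the adult hippocampus, in both sexes with sex as a covariate. A gene was called at p under 0.005 in limma-voom. None of the 9 genes was called, nor was any at p under 0.05, and 0.141% of all tested genes (28 of 19797) were called. The log2 fold changes (nPM minus control) ran from -0.01 for Cldn11 to 0.14 for Opalin, with a median of 0.05 beside -0.0059 over all genes. Mbp was at 1283 CPM on average with nPM and at 1262 CPM in controls, a log2 fold change of 0.04 with a 95% interval of -0.23 to 0.30. The interval differed between genes, and was narrowest for Ermn, from -0.08 to 0.27, and reached from -0.20 to 0.48 for Opalin. The edgeR quasi-likelihood test and the DESeq2 Wald test also called 0 of the 9.

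In males, all 9 genes had positive log2 fold changes and none passed the test. The values ran from 0.13 for Cldn11 to 0.22 for Mag with a median of 0.19, beside -0.0013 over all genes, and 0.207% of all genes (41) were called. The unadjusted p of the 9 genes in limma ran from 0.177 (Ermn) to 0.52 (Cldn11). Mean Mobp was 856 CPM in nPM males and 745 CPM in control males, a log2 fold change of 0.21 ± 0.16 (SE) with an adjusted p of 0.963 in limma. Two-sided exact permutation tests of the 5 against 5 samples gave p from 0.238 to 0.667 over the 9 genes, where the smallest p this design allows is 0.00794. The direction rested on control male 1: without it the median was -0.02, 6 of the 9 genes were below 0, and Mbp stood at -0.02.

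In females, 7 of the 9 genes had negative values and none passed the test. The log2 fold changes ran from -0.15 for Mog to 0.11 for Opalin with a median of -0.07, beside 0.0038 over all genes, and 0.0909% of all genes (18) were called. Mog was at 42.0 ± 6.17 CPM (SD, n = 5) in nPM females and at 47.2 ± 5.37 CPM in control females. Exact permutation tests gave p from 0.206 to 0.905 over the 9 genes. Without nPM female 4 the median was -0.01, and Mag and Cnp turned to 0.11 and 0.09.

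The difference between the male and the female effect was tested as an interaction of sex and exposure. All 9 values were positive, from 0.09 for Opalin to 0.34 for Mog, with a median of 0.29 beside 0.01 over all genes. None of the 9 was called, where 0.217% of all genes (43) were. The smallest p in limma was 0.103, for Mobp, with an adjusted p of 0.987. The median fell to 0.10 without control male 1, to 0.19 without nPM female 4, and to 0.01 without both, when Mag, Cnp, Opalin and Cldn11 were below 0. The 2 libraries thus carried most of the size of this difference, and no cause of their low values was tested.

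**Figure D2:**
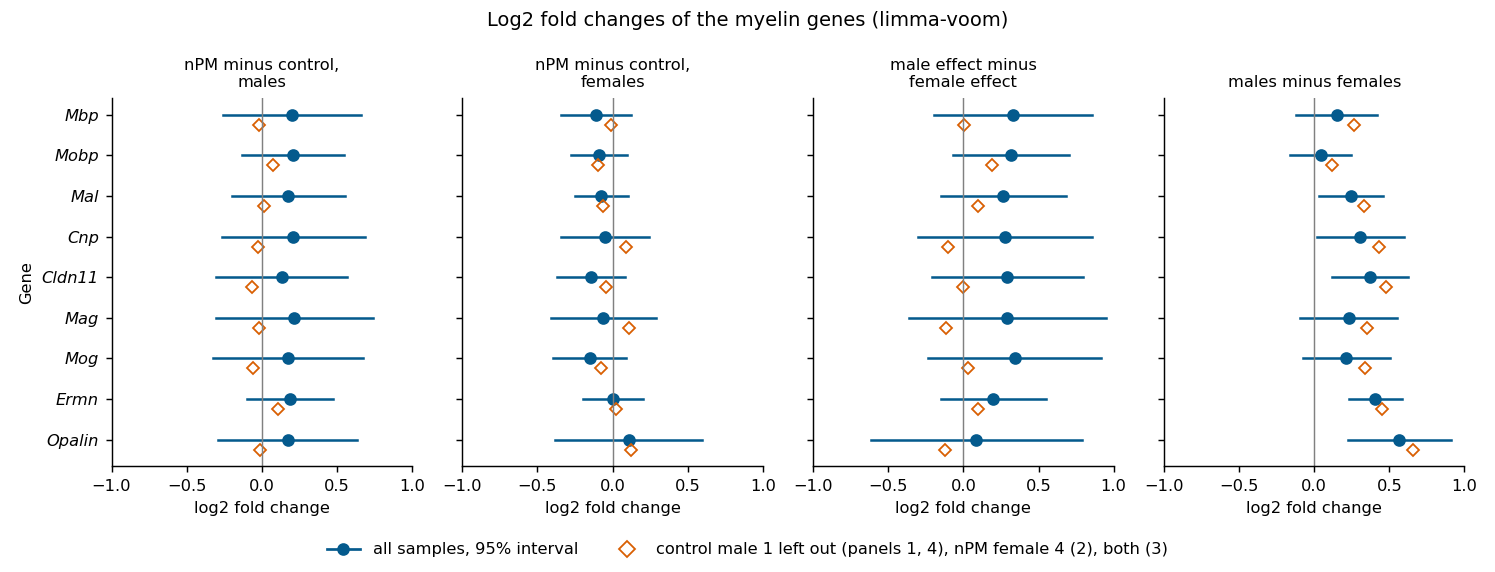
Log2 fold changes of the 9 myelin genes in limma-voom (x axis) with 95% intervals over all samples (blue), and without the low library or libraries named in the key (open orange diamonds). In males the median moved from 0.19 to -0.02 without control male 1, and in the comparison of the sexes it moved from 0.25 to 0.35.

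Males and females were compared with exposure as a covariate. Ermn and Opalin, 2 of the 9 genes, were called, and both were higher in males. In this contrast 31.1% of all tested genes passed in either direction (6147 of 19797) and 13.9% passed with higher values in males, so the 2 of 9 are close to what genes at large showed. Ermn averaged 111 CPM in males and 82.6 CPM in females, a log2 difference of 0.41 ± 0.08 (SE, limma p of 9.4e-05, adjusted p of 0.00072). Opalin averaged 20.7 CPM in males and 14.0 CPM in females, a log2 difference of 0.57 ± 0.16 (limma p of 0.0024, adjusted p of 0.0090). At an adjusted p under 0.05, which 40.4% of all genes passed, Cldn11 was also higher in males, at 133 CPM against 101 CPM, with a log2 difference of 0.37 ± 0.12 (limma adjusted p of 0.019).

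The other genes of the sheath were not called between the sexes in all samples. The log2 differences (males minus females) were 0.31 for Cnp, 0.25 for Mal, 0.23 for Mag, 0.21 for Mog and 0.15 for Mbp. Mobp showed the smallest, 0.04 with a 95% interval of -0.16 to 0.24, and turned to -0.01 when only protein-coding genes were kept. The median of the 9 was 0.25, beside 0.02 over all genes. Without control male 1, 7 of the 9 were called, all but Mag and Mobp, beside 30.1% of all genes, and the median was 0.35. Without both low libraries 6 of the 9 and 31.3% of all genes were called. Without control female 2 or without nPM female 1, the females with the least Opalin, Opalin was no longer called and Ermn alone was. Opalin was also no longer called with a replicate block (0.56) or with protein-coding genes only (0.52).

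Age could not be told apart from sex in this contrast, since every male was older than every female. With age in weeks as a covariate, 0 of the 9 genes and 84 of all genes were called, while Ermn stood at 0.36 and Opalin at 0.76. The sex differences are therefore differences between groups that also differed in age.

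The 9 genes rose and fell together from sample to sample. After each group mean was removed, the first component of the 9 genes held 83.6% of their variance over the 20 samples, and 79.0% over 18 samples without the 2 low libraries. Mbp, Cnp, Mag, Mog and Cldn11 formed the closest set, with Pearson's r from 0.94 to 0.98 over their 10 pairs. Mobp and Mal were as close to each other (r = 0.96) and less close to those 5 genes (0.74 to 0.90). This did not hold for Mal once the trend with GC content, described below, was subtracted. Mal then had r of 0.903 to 0.913 with the 5 genes and 0.881 with Mobp, while Mobp had 0.67 to 0.72 with the 5. Ermn had r of 0.66 to 0.82 with the other genes, Opalin left aside, and Opalin had 0.50 to 0.76 with the other 8. Without the 2 low libraries the closest set had r from 0.82 to 0.97 and Opalin 0.325 to 0.67. Mobp and Mal then had r of 0.74 to 0.90 with the 5 genes, which overlapped the range within the set. Mbp was then closer to Mobp (0.897) than to any other gene of the set (at most 0.879, for Mag). The line between the set and these 2 genes thus rested in part on the low libraries. These are descriptions, since all genes of a sample share its library, depth and dissection.

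**Figure D3:**
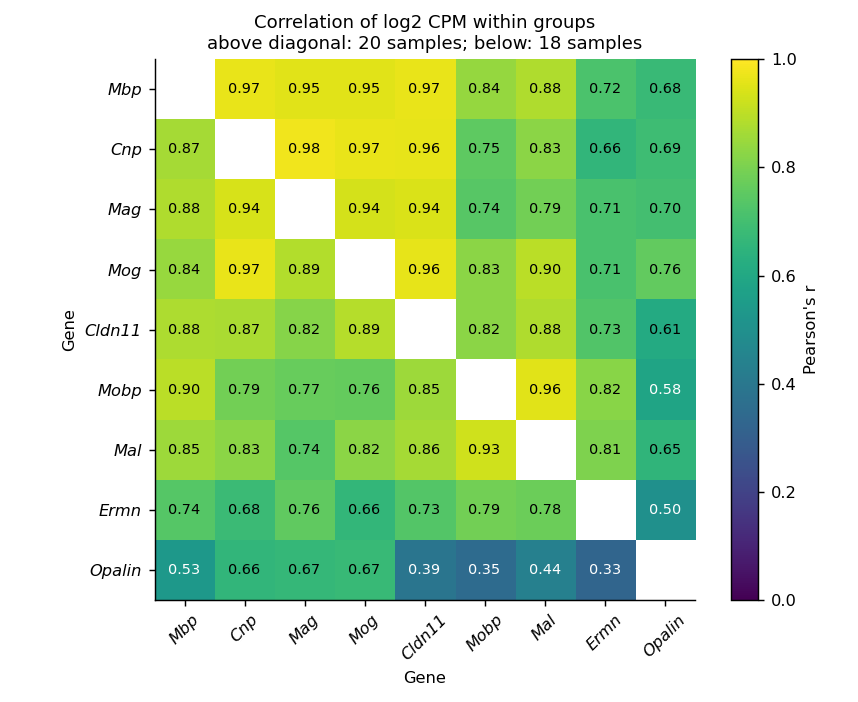
Pearson's r between the log2 CPM of each pair of myelin genes after group means were removed, over 20 samples (above the diagonal) and over 18 samples without control male 1 and nPM female 4 (below). The block of Mbp, Cnp, Mag, Mog and Cldn11 is at 0.94 to 0.98 above the diagonal, and Opalin has the lowest values, down to 0.50 above it and 0.325 below it.

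Between samples, the mean deviation of the 9 genes from their own means ran from -0.72 (control male 1) to 0.52 (nPM male 2) on the log2 scale. nPM male 1 (0.41), control male 4 (0.37) and control male 5 (0.34) were also high. In females, nPM female 4 was at -0.46 and control female 2 at -0.33, and no female was above 0.05. Both exposure groups of males thus held high samples, and the low ends were held by a control male and an nPM female.

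**Figure D4:**
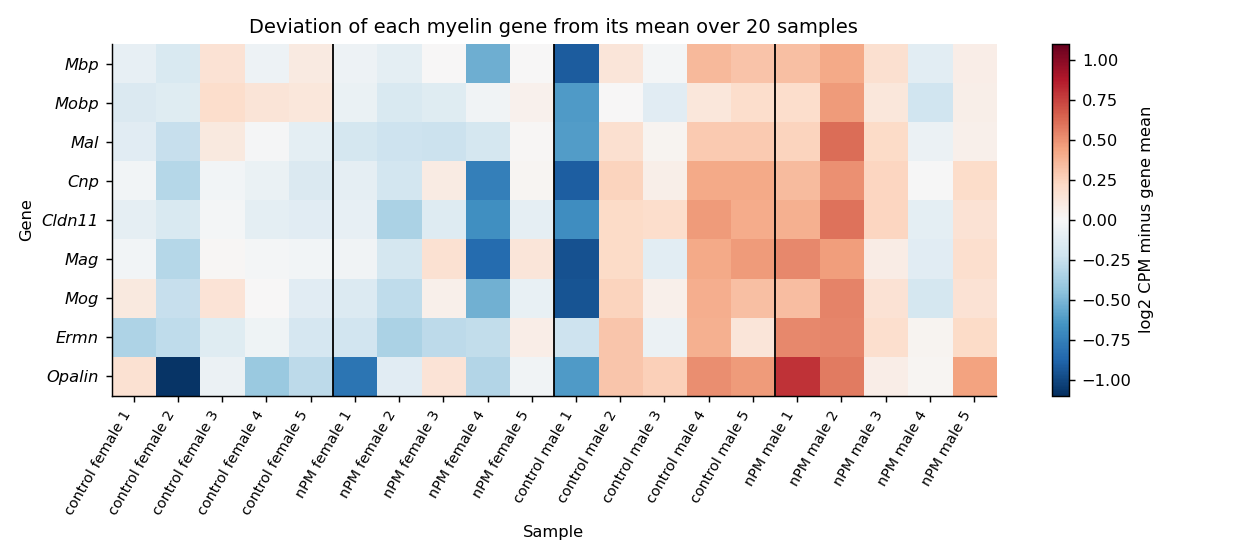
Deviation of log2 CPM from each gene's mean over 20 samples (color, red above and blue below), with genes in rows and samples in columns by group. Control male 1 is blue in all 9 genes (mean -0.72), nPM female 4 is below the mean in all 9, by little in Mobp (mean -0.46), and nPM male 2 is red in all 9 (mean 0.52).

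The low libraries also differed from the others in how counts followed base composition. Genes were ranked by the GC content of their longest transcript, which was available for 99.6% of tested genes. In the tenth of genes with the highest GC content, the median deviation from the mean of the 20 samples was -0.47 in nPM female 4 and -0.17 in control male 1, against -0.07 to 0.21 in the other 18 samples. In the tenth with the lowest GC content it was 0.29 in nPM female 4 and 0.13 in control male 1, against -0.17 to 0.20 in the other 18, so control male 1 was within their range at this end. In nPM female 4, Mag (57.6% GC) was 0.85 below its mean on the log2 scale and Cnp (54.8%) 0.75 below, while Ermn (38.0%) was 0.27 below, but Mobp (53.3%) was at -0.04. When the trend with GC content was subtracted in each sample, the mean deviation of the 9 genes moved from -0.72 to -0.66 in control male 1 and from -0.46 to -0.40 in nPM female 4. Single genes in nPM female 4 moved more than this mean, and in both directions. Mag rose to -0.46, Cnp to -0.49 and Mobp to 0.14, while Ermn fell to -0.575.

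**Figure D5:**
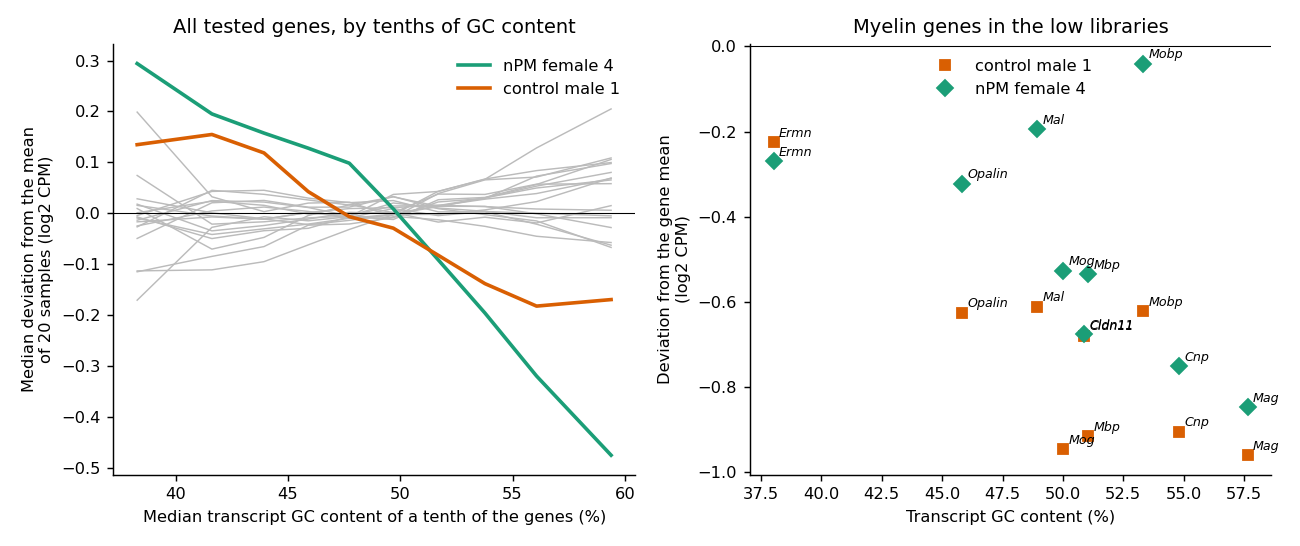
Left, median deviation of log2 CPM from the mean of 20 samples over the tested genes ranked and binned by transcript GC content (%), 1 line per sample. Right, deviation of each myelin gene against its GC content in the low libraries. nPM female 4 falls to -0.47 in the tenth with the highest GC content and control male 1 to -0.17, while the 18 other samples (grey) end between -0.07 and 0.21.

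Markers of other tissues and cells differed between samples as well. In control male 1 the 10 neuron markers summed to 8428 CPM, the highest of its group, where the lowest control male was at 5676 CPM, and the 8 dentate gyrus markers summed to 354 CPM, the lowest of all 20 samples. The 10 thalamus markers were between 373 CPM (nPM female 4) and 636 CPM (nPM male 1), and their mean log2 level had r = 0.55 with that of the myelin genes once group means were removed (0.39 without the 2 low libraries). Choroid plexus markers ran from 35.1 to 8373 CPM over the samples, with r = 0.425 (0.248 without the 2 low libraries). By the same measure r was 0.52 for microglia markers, 0.46 for astrocytes, 0.39 for the dentate gyrus and -0.45 for neurons. Without the 2 low libraries these were 0.352, 0.43, 0.176 and -0.331, in the same order. Blood genes reached 43.0 CPM in control male 1 and 56.9 CPM in nPM male 2, against 1.25 to 4.94 CPM in females. These 2 males did not stand for their groups, whose medians were 4.72 CPM (control) and 5.02 CPM (nPM). No marker of the neuron, dentate gyrus, thalamus or choroid plexus lists was at 0 in a whole group, and the part of these tissues in the myelin values was not tested.

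Among genes that were not members, those most like the mean of the 9 genes within groups included Tmbim1 (r = 0.96), Tmem63a (0.96), Gpr37 (0.95), Tmem88b (0.95), Ttyh2 (0.95), Tmem125 (0.93) and Otud7b (0.93), over 20 samples. Gpr37 encodes a receptor of maturing oligodendrocytes. Without the 2 low libraries these 7 values were 0.82 to 0.91.

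A list of 44 other genes of myelin and mature oligodendrocytes was described beside the members. None was called for exposure in both sexes, in males, in females or for the interaction, and the median was 0.13 in males beside 0.19 for the 9 members. Between the sexes 11 of the 44 were higher in males and 1 lower, with a median of 0.26, where 13.9% of all genes were called higher in males and 31.1% in either direction. Those higher in males included Tppp, a tubulin polymerization promoter (0.31 ± 0.06), Car2, carbonic anhydrase 2 (0.56 ± 0.12), Ugt8a, the galactosyltransferase of myelin galactolipids (0.51 ± 0.11), Lpar1, a lysophosphatidic acid receptor (0.51 ± 0.10), and Tspan2, a tetraspanin (0.37 ± 0.10). Il33, Pllp, Qdpr, Evi2a, Klk6 and Nkx6-2 made up the rest, at 0.34 to 0.95. Nfasc, whose glial form holds the paranode and whose neuronal form lies at the node, was lower in males by 0.57. Enpp2 was the highest of the list per length, at 369 RPKM. Enpp2 is also strongly expressed by the choroid plexus, and its sex difference of 0.998 ± 0.679 was not called.

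Other lists, of the lineage, of cholesterol synthesis and of the node and paranode, gave mixed directions between the sexes, where 31.1% of all genes were called. Of 11 oligodendrocyte transcription factors, Myrf, which drives myelin gene expression, was lower in males (-0.59 ± 0.15, limma adjusted p of 0.0032) and none was higher. Of 14 precursor genes, Lhfpl3 (0.54) and Enpp6 (0.41), a marker of newly forming oligodendrocytes, were higher in males, and the matrix genes Tnr (-0.30) and Vcan (-0.21) lower. Of 22 genes of cholesterol synthesis, the pathway that supplies the main lipid of myelin and is also active in astrocytes and neurons, 10 were higher in males and 0 lower, with a median of 0.25, beside the 13.9% of all genes called higher in males. Among them were Hmgcs1 (0.47 ± 0.09), Insig1, a feedback regulator (0.46 ± 0.08), and Msmo1 (0.48 ± 0.09). Of 15 node and paranode genes, 6 were lower in males, Nfasc, Ank3, Scn8a, Cntnap1, Sptbn4 and Kcna1, and Cntn1 was higher (0.33 ± 0.06). None of the genes in these lists passed for exposure or the interaction.

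Markers of other cells moved between the sexes as well, in the contrast where 31.1% of all genes passed. Astrocyte genes were higher in males for 4 of 10 (Gja1, S100b, Aqp4, Aldoc) and microglia genes for 3 of 10 (among them P2ry12 and Aif1), while endothelial genes were lower for 4 of 10 (Flt1, Pecam1, Cdh5, Slco1a4) and neuron genes for 2 of 10 (Nefm, Rbfox3). The 2 called neuron genes did not stand for their list, in which 7 of 10 genes were above 0, with a median of 0.0995 beside 0.0191 over all genes. Pdzd2 of the dentate gyrus list and Adarb1 of the thalamus list were lower in males. None passed in the CA1 and CA3, choroid plexus, striatum, neocortex, meningeal fibroblast, blood or peripheral myelin lists. For exposure in both sexes, the gene with the smallest p in each of these 7 lists was Spock1, Kl, Adora2a, Ctgf, Col1a1, Hbb-bs and Pmp22, in that order, and none was called. Their log2 fold changes ran from -0.62 (Ctgf) to 0.92 (Adora2a).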

How the data were processed

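Hippocampal RNA of 20 mice was sequenced after depletion of ribosomal RNA. Per the study's methods and the submitters' processing notes, the authors checked the reads with FastQC, trimmed adapters with Trimmomatic where needed, aligned to mm10 with HISAT2 and counted per gene on Gencode M11 with featureCounts 1.5.0-p3. The deposited values are whole-number counts, not normalized. The authors also deposited gene lengths and the mean RPKM of each gene, which differed from the mean recomputed from the counts by at most 4.91e-11. Handling of strand, multi-mapped reads and overlapping genes is not given in the sources used here.

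Sex, exposure and replicate were taken from the sample labels. Genes with few counts were removed with filterByExpr, given the 4 groups (minimum count 10, minimum total 15). TMM factors (edgeR 4.0.16) were 0.958 to 1.06. limma-voom (limma 3.58.1, R 4.3.3, offset 0.5) was fitted across all 19797 genes, with TMM on the samples of each fit, for exposure with sex as a covariate, exposure in each sex, the interaction, and sex with exposure as a covariate. A gene was called at p under 0.005, the study's threshold, with Benjamini-Hochberg adjusted p-values over all genes. The scripts were tested on simulated data. Squared differences between samples of a group averaged 14.2 to 87.7 times counting noise over 40 pairs, so no library appeared to be deposited more than once within a group. Samples of different groups were not compared in this way. Single genes were compared within a sex by two-sided exact permutation tests on log2 CPM. The GC content of a gene was that of its longest Gencode M21 transcript, and its trend was a lowess curve per sample (span 0.3).

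The members and the lists, written from general knowledge, were chosen with earlier results of these data known. Besides the members, the text names the genes of each list called in a fit, or the gene with the smallest p for exposure in both sexes where none was called, those highest per length (printed for the list of other myelin genes), and the 8 non-members most correlated with the members' mean. Some genes that this rule selects are not reported here. The alternatives were DESeq2 1.42.0, edgeR quasi-likelihood, RLE normalization, no filter, sample quality weights, protein-coding genes, a replicate block, age as a covariate, 1 fit of the 4 groups, log2 CPM without TMM factors, and each sample left out. Subtracting the GC trend and leaving out control male 1 with nPM female 4 were chosen after seeing the data. Tables and figures were made with Python 3.11.15, pandas 2.3.3, scipy 1.17.1 and matplotlib 3.10.9.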

Additional observations from a re-analysis of the deposited data

Results flagged for a closer look

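A sample stood apart from the other 4 of its group in 8 of 36 combinations of gene and group, judged by its gap to the nearest sample as a share of the group's range, a test at which chance flags about 1 in 20. In 5 of the 8 the sample was control male 1, each time the lowest. Its gap was 0.74 of the range for Mog (24.7 CPM, the next control male at 49.4), 0.733 for Cnp (128 CPM, next 251), 0.714 for Mal (186 CPM, next 291), 0.783 for Opalin (10.7 CPM, next 19.8) and 0.765 for Cldn11 (71.0 CPM, next 130.3). These genes vary together, so the 5 are not independent of each other. nPM female 4 was the lowest nPM female for Mbp (861 CPM, next 1161), with a gap of 0.793. Control female 2 was the lowest control female for Mag (105 CPM, next 128), with a gap of 0.857. nPM female 5 was the highest nPM female for Mal (287 CPM, next 249), with a gap of 0.836.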

How the results depend on the processing

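For exposure in both sexes, in males, in females and for the interaction, 0 of the 9 myelin genes were called under every alternative run. What moved was the number of all genes called. Without the filter on low counts it was 71 in both sexes, 130 in males, 87 in females and 149 for the interaction. With DESeq2 it was 43, 113, 55 and 89. With sample quality weights it was 53 in both sexes and 44 in females. For the interaction it was 66 with edgeR, 20 with protein-coding genes, 67 with the replicate block and 69 without both control male 1 and nPM female 4. With single samples left out it ran from 17 to 47 in both sexes, 25 to 79 in males, 10 to 49 in females and 27 to 81 for the interaction. Without the filter 35001 genes were tested, and the share called was higher as well as the number. It was 0.203% in both sexes, 0.371% in males, 0.249% in females and 0.426% for the interaction. With the filter these shares were 0.141%, 0.207%, 0.0909% and 0.217%, in the same order. The cause of these shifts was not tested.

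Between the sexes, the number of myelin genes called was 2 in all samples (6147 of all genes called), 5 with quality weights (6831), 1 with protein-coding genes (4152 of 15016), 1 with the replicate block (5834), 0 with age as a covariate (84) and 6 without both low libraries (6270). The gene lost with protein-coding genes and with the block was Opalin. The genes gained with quality weights were Cnp, Mal and Cldn11, and without both low libraries these and Mog. Cldn11 was also called with edgeR (0.40, 6138 of all genes called), DESeq2 (0.40, 6723) and the GC trend subtracted (0.38, 6632). With single samples left out the number of myelin genes called ran from 1 to 7 (5509 to 6446 of all genes). The 7 came without control male 1, and the 1 came without control female 2 or nPM female 1, when Opalin was no longer called.

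Several fold changes near 0 changed sign, with none called. In both sexes, Mog was at -0.0179 with edgeR, at -0.0173 with DESeq2, at -0.0451 with quality weights and at -0.0668 without both low libraries, without which Mbp was also at -0.0149, Mobp at -0.0106 and Mal at -0.0243, and Cldn11 was at 0.0027 without the filter. In females with quality weights, Mag was at 0.0111, Cnp at 0.0089 and Ermn at -0.0247, and Ermn was at -0.0065 with protein-coding genes and at -0.0095 in 1 fit of the 4 groups. For the interaction, Opalin was at -0.17 with quality weights, and without both low libraries Mag was at -0.12, Cnp at -0.10, Opalin at -0.12 and Cldn11 at -0.0057, with a median of 0.0057. Between the sexes Mobp was at -0.006 with protein-coding genes.

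Leaving out single samples gave these ranges where a sign changed. In both sexes they were -0.11 to 0.0429 for Cldn11, -0.0472 to 0.15 for Cnp, -0.0492 to 0.16 for Mag, -0.0393 to 0.0742 for Mal, -0.0766 to 0.0947 for Mbp, -0.0201 to 0.0835 for Mobp and -0.11 to 0.053 for Mog. In females they were -0.12 to 0.0891 for Cnp, -0.0656 to 0.0443 for Ermn, -0.14 to 0.11 for Mag and -0.0673 to 0.26 for Opalin. In males they were -0.0657 to 0.22 for Cldn11, -0.0276 to 0.30 for Cnp, -0.0213 to 0.33 for Mag, -0.0198 to 0.29 for Mbp, -0.0614 to 0.27 for Mog and -0.0147 to 0.27 for Opalin. For Opalin in the interaction the range was -0.10 to 0.25, and for Mobp between the sexes -0.0013 to 0.12.

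The replicate numbers were not used to pair the samples in the main fits. Same-numbered control and nPM samples had correlations of -0.18 to 0.05 in females and -0.36 to 0.16 in males, and none correlated best with its own number. Between the sexes the correlations were -0.09 to 0.22 in controls, with 3 of 5 pairs over 0.1 and 3 samples closest to their own number, and -0.23 to 0.17 with nPM, with 1 of each. No set had every pair over 0.1, but this cannot show that same-numbered samples had nothing else in common. Whether some of them shared a litter or a batch was not tested. Exact tests on log2 CPM without TMM factors left all 18 calls and directions as they were.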
